A study of Arabidopsis thaliana with 13 samples.

Results

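Medium and large dry seeds of the same 4 seed pools were compared by their transcriptomes. The comparison covers the columns of the dry seed count table labelled M1 to M4 (medium) and L1 to L4 (large), 4 libraries a side and 8 of the 24 libraries of the series. The seeds were wild-type Col-0, harvested from plants grown in a greenhouse in long days, and were sequenced dry, with no imbibition, hormone or mutation in either group. A robot that photographs each seed sorted every pool into small, medium and large seeds, the medium class being the middle of that pool's own size distribution, so that M1 and L1 come from pool 1, M2 and L2 from pool 2, and so on. Each library was made from a batch of seeds of 1 pool, and the pools are the replicates. The labels describe all dry seed libraries as 1 multiplexed sample, and the pool and size of each library were read from the column name. The question is what distinguishes seeds of ordinary size from large ones, apart from the small seeds that were sorted from the same pools.

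A dry Arabidopsis seed holds a mature embryo, a thin endosperm and a dead seed coat, and its RNA is a store left from maturation. During maturation the embryo fills with 2S albumins and 12S globulins, which are held in vacuoles as nitrogen reserves, and with oil, which is kept in bodies coated by oleosins. The maturation factor ABI3 and its relatives act through the RY element of the promoters of these genes, and bZIP factors of the abscisic acid pathway through the ABRE. Dormancy is set in the same phase, by abscisic acid signalling and by DOG1, a protein that delays germination.

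The libraries were made by 3′ RNA-seq, in which each transcript is read from its poly(A) end, so counts were not divided by gene length. The medium libraries held 873207 to 1465385 counts on genes and the large ones 814009 to 2079317. The scaling factors of TMM, a normalization that sets the bulk of genes equal between libraries, were 0.996 to 1.07 in medium and 1.103 to 1.180 in large seeds. Levels are given as CPM, that is, counts scaled to the same total in every library, with these factors applied. Summed shares of gene lists are shares of the counts on genes, with no scaling factors. Without such factors the median log2 fold change of all genes, medium minus large, was -0.14. Of the 7 endosperm markers only EPR1 passed the filter on low counts, and the summed share of the list was 2.66 to 4.24% of the counts in medium and 3.23 to 3.54% in large libraries, which overlapped. Of the 16 seed coat genes 1 passed, and of 26 nuclear photosynthesis genes 4, with summed shares of 0.0220 to 0.0280% and 0.0102 to 0.0158% over the 8 libraries.

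Medium and large seeds differed in few genes. Of the 8234 genes kept, 12 differed at an FDR under 0.05 (0.146% of those tested), and all 12 had the higher level in medium seeds. They were the storage albumin genes SESA2 and SESA3, the 12S globulin genes CRU3 and AT1G03890, the embryo gene ATS3, ADC2, LTP2, RAT5, AT4G37180, AT4G01870, AT4G36850 and AT1G66760. The log2 fold changes, medium minus large, ran from 0.64 to 1.67. None was called higher in large seeds, where 243 genes had an unadjusted p under 0.05 and DESeq2 called 0 as well. DESeq2 gave no FDR to AT3G60750, AT2G37600, HA2 and AT2G47710, named below on that side, and so could not call them. For comparison, the fit that called the 12 also called 289 genes between small and medium (3.51%) and 1209 between small and large seeds (14.7%). These 2 comparisons share the medium or the large libraries with that of medium and large seeds. All values are relative to the RNA of a library, and in such bulk samples fewer cells of a type and less RNA per cell cannot be told apart.

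The number of genes called varied between fits. With the seed pool as a replicate block the fit called 24 genes, 22 higher in medium (0.267%) and 2 higher in large seeds (0.0243%), the 12 among them. The 8 libraries fitted without the small seeds gave 35 genes, 26 higher in medium and 9 in large. When the library totals were used with no scaling factors, which moved the median of all genes to -0.14 from 0.01, the calls were 5 higher in medium and 5 higher in large seeds. The 5 higher in medium were SESA2, SESA3, ADC2, ATS3 and AT4G37180. The 5 higher in large, named here after their values were seen, were AT1G68240, AT3G60750, AT1G33120, AT1G33790 and the chloroplast gene ATCG00160. Leaving out 1 medium or large library gave 5 to 26 genes, the most without M4 and the fewest without M2 or L3, and leaving out 1 small library gave 10 to 33, the most without S3. None of the 12 genes reversed under any alternative. They were selected for their differences in these same counts, so this gives no separate support for the direction. SESA2, ADC2, SESA3 and ATS3 were called in all 8 fits that left out 1 medium or large library. With every library thinned to the shallowest, ATS3 was among the 6 of the 12 that lost the call (1.32, FDR 0.063).

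**Figure D1:**
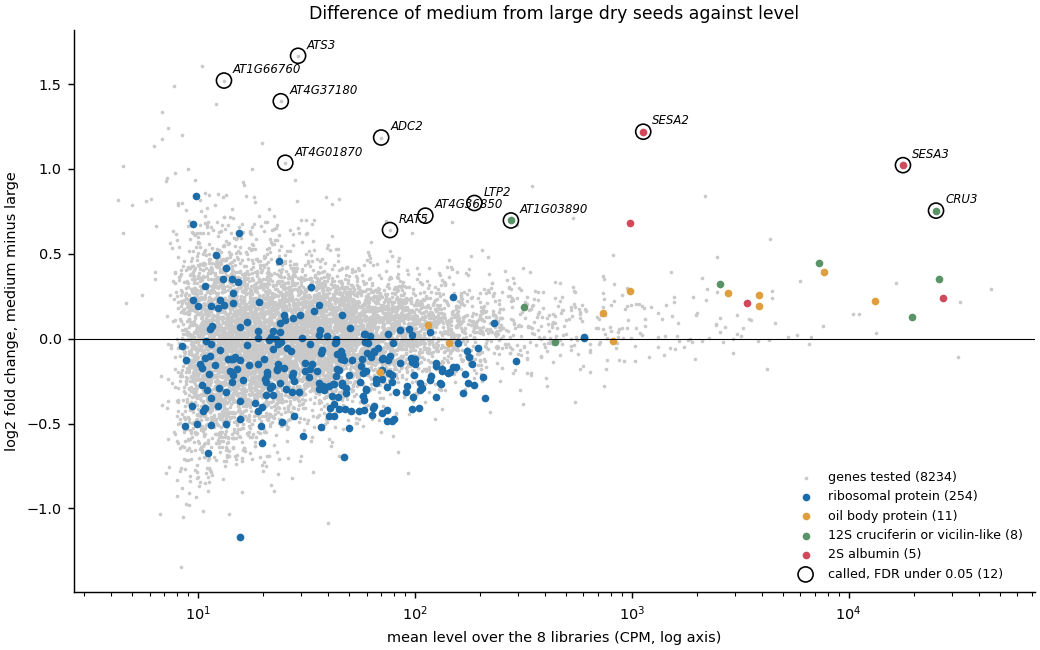
Log2 fold change of medium minus large dry seeds against the mean level over the 8 libraries in CPM (log axis), 1 point per gene tested, with storage protein, oil body and ribosomal protein genes coloured and the 12 genes called circled. All circled genes lie above 0, SESA3 and CRU3 among the most abundant transcripts, while most of the 254 ribosomal protein genes lie below 0.

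The 2S albumins are small sulfur-rich storage proteins, and 4 of their 5 genes stand in an array on chromosome 4, SESA1 to SESA4, with 1032 to 1720 bases between neighbours. SESA2 (chr4:13609341-13610075, TAIR10.1) had 1632, 1924, 1631 and 1134 CPM in M1 to M4 and 854, 435, 629 and 815 CPM in L1 to L4. The groups did not overlap, and the difference was 1.22 ± 0.18 on the log2 scale (± SE), a fold of 2.33, at an FDR of 0.00014. SESA3 (chr4:13611796-13612563), its neighbour, was among the most abundant transcripts of the seed, with 24423, 32833, 20551 and 17725 CPM in medium and 13487, 9213, 10582 and 13763 CPM in large libraries. It was 2.03-fold higher in medium seeds (1.02 ± 0.16, FDR 0.00041), again without overlap, although M4 and L4 lay closer together than the libraries of the other pools.

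The other albumin genes did not pass the test. SESA1 had 1025, 1168, 1634 and 1038 CPM in medium and 689, 890.2, 679 and 772 CPM in large libraries, which did not overlap, and its difference was 0.68 ± 0.18 (FDR 0.11, and 0.039 with the pool as a block). SESA4, at the end of the array, varied by pool more than by size. It had 5059, 2553, 2331 and 4593 CPM in medium and 3866, 2091, 2582 and 4029.9 CPM in large libraries, high in pools 1 and 4 of both sizes, and its difference was 0.21 ± 0.18 (95% interval -0.16 to 0.58). SESA5, which lies on chromosome 5 and outside the array, was the most abundant of the family over the 8 libraries and differed by 0.24 ± 0.14 (-0.03 to 0.52). The 5 genes thus spanned 0.21 to 1.22, all above 0, with a median of 0.68 beside 0.01 over all genes. The copies of the array are alike in sequence, how the counting treated reads that fit more than 1 copy is not given in the sources used here, and the split of reads among SESA1 to SESA4 is uncertain. The summed share of the family does not depend on how counted reads were assigned among the copies. It was 6.4, 6.7, 4.98 and 5.74% of the counts in M1 to M4 and 5.12, 3.58, 4.06 and 5.23% in L1 to L4, higher in medium seeds in each of the 4 pools, with M3 below L1 and L4.

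The 250 bases before the annotated starts of these genes are shown because neighbouring genes with similar windows differed in fold, together with CRU3 and ATS3, the other storage and embryo genes that the results turn on. Capitals mark the RY core (CATGCA) and the ABRE core (ACGTG), on either strand, and matches that overlap were counted separately. The sequences and coordinates are those of RefSeq's TAIR10.1 assembly, read 5′ to 3′ on the strand of the gene.
SESA1 (chr4:13607079-13607328, plus strand): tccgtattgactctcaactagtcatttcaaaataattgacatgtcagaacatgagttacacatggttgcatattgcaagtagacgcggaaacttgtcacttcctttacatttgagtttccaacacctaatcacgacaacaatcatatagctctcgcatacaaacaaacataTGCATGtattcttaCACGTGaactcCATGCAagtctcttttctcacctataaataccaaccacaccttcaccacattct
SESA2 (chr4:13609091-13609340, plus strand): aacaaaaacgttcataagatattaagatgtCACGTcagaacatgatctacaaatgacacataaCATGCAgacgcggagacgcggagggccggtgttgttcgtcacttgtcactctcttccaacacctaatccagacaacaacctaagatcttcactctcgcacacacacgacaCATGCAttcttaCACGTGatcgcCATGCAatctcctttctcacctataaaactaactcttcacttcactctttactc
SESA3 (chr4:13611546-13611795, plus strand): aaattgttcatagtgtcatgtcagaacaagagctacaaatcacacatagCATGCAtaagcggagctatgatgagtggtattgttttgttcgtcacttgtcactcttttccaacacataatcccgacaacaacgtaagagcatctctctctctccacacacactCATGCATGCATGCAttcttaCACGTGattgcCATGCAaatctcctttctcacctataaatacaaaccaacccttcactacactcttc
SESA4 (chr4:13613346-13613595, plus strand): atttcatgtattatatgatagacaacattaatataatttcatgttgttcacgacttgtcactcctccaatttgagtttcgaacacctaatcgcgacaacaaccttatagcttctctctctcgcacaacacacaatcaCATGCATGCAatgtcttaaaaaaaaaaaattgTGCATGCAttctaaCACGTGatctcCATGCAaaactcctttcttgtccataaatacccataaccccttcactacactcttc
CRU3 (chr4:14087306-14087555, plus strand): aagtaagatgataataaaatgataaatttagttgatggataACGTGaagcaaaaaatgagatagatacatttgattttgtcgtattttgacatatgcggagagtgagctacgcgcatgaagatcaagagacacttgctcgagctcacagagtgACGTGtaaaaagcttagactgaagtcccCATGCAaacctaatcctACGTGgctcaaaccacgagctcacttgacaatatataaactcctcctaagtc
ATS3 (chr5:2237224-2237473, plus strand): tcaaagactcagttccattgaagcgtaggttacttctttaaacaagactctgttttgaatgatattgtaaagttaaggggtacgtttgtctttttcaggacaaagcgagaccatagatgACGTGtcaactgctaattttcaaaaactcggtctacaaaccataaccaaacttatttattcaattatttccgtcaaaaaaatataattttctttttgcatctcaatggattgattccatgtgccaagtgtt
All 4 windows of the array hold CACGTG, in which the ABRE core reads on both strands, 64 to 67 bases before the start (first base of the match), with an RY core at 54 to 56 bases. The window of SESA4, which did not pass the test, holds 6 matches of the RY core, that of SESA3 7, that of SESA2 3 and that of SESA1 2. CRU3 has 1 RY core and 3 ABRE cores, and ATS3 has 1 ABRE core and no RY core. Of the 26 storage protein, oil body and ATS3 genes kept, 23 (88.5%) had an RY core and 18 (69.2%) an ABRE core in such a window. The shares were 6.88% and 25.02% over the 8134 windows of genes kept, and 8.43% and 22.9% over all 27443 nuclear protein-coding genes. Of the 12 genes called, 4 had an RY core, SESA2, SESA3, CRU3 and AT1G03890, and 5 an ABRE core, SESA2, SESA3, CRU3, ATS3 and LTP2. A match describes letters in the window and not a bound site.

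Among the 12S globulins, CRU3 (chr4:14087556-14089796), which encodes a major cruciferin, had 25109, 47735, 31960.0 and 22337 CPM in medium and 18105, 18626, 17615 and 21027 CPM in large libraries. It was 1.69-fold higher in medium seeds (0.75 ± 0.17, FDR 0.034). M2 was far above the other medium libraries and M4 was only just above L4, and without M2 the difference was 0.48. The call was lost in 6 of the 8 fits that left out 1 medium or large library, and with DESeq2 (FDR 0.39). AT1G03890 (chr1:989198-991020), annotated as a cupin of the RmlC type and standing near CRU2 on chromosome 1, had a steadier estimate. It had 404, 335, 315 and 316 CPM in medium and 234, 169.6, 206 and 242 CPM in large libraries, a difference of 0.70 ± 0.15 (FDR 0.029), which stayed between 0.58 and 0.75 whichever library was left out.

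The 2 other cruciferins pointed the same way without passing the test. CRU2 had 8342, 9159.8, 8901 and 7473 CPM in medium and 6644, 5656, 6269 and 6262 CPM in large libraries, without overlap, and differed by 0.45 ± 0.15 (FDR 0.4). CRA1 had 23267, 38927, 31104 and 23868 CPM in medium and 21280.5, 25388, 22322 and 22917 CPM in large libraries, higher in medium in every pool but with M1 and M4 inside the range of the large libraries, and differed by 0.35 ± 0.15 (FDR 0.66). Of the cupins of the vicilin type, AT2G28490 differed by 0.32 ± 0.12, AT4G36700 by 0.19 ± 0.13, PAP85 by 0.13 ± 0.12 and AT2G18540 by -0.02 ± 0.13. The highest upper bound of these 4 intervals was 0.57. Over the 8 genes, 2 passed the test (0.146% of all genes), 7 had a value above 0 (51.1% of all genes) and the median was 0.34. Their summed share was 7.71, 12.1, 9.76 and 7.93% in M1 to M4 and 7.38, 8.04, 7.46 and 7.78% in L1 to L4, and of the medium libraries only M2 and M3 exceeded every large one.

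None of the 11 oil body genes kept passed edgeR's test, 4 had an unadjusted p under 0.05 (3.9% of all genes in this direction), and 5 had libraries that did not overlap (2.44% of all genes), all higher in medium. OLEO4, an oleosin, came nearest, with 9707, 8417, 8683 and 8158 CPM in medium and 7504, 5780.5, 6827 and 6493 CPM in large libraries (0.39 ± 0.12, FDR 0.31). DESeq2 called it, as 1 of the 3 genes it added. OLEO1, the main oleosin of the seed, had 14224, 13781, 14698 and 14088 CPM in medium and 12532, 11182, 11543 and 13489.9 CPM in large libraries, apart but by little (0.22 ± 0.12, -0.02 to 0.47). The others apart were the oleosin AT3G01570 (0.27 ± 0.12), the steroleosin HSD5 (0.28 ± 0.12) and AT1G05510 (0.26 ± 0.12). OLEO2 (0.19 ± 0.12), OLEO3 (-0.19 ± 0.16), the oleosins AT3G18570 (-0.02 ± 0.14) and AT1G48990 (0.08 ± 0.14), and the caleosins ATS1 (0.15 ± 0.13) and ATPXG2 (-0.02 ± 0.11) overlapped between sizes. The summed share of the list was 3.78, 3.61, 3.75 and 3.73% in M1 to M4 and 3.57, 3.22, 3.38 and 3.49% in L1 to L4, which did not overlap. The median was 0.19, and 0.05 with no scaling factors.

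**Figure D2:**
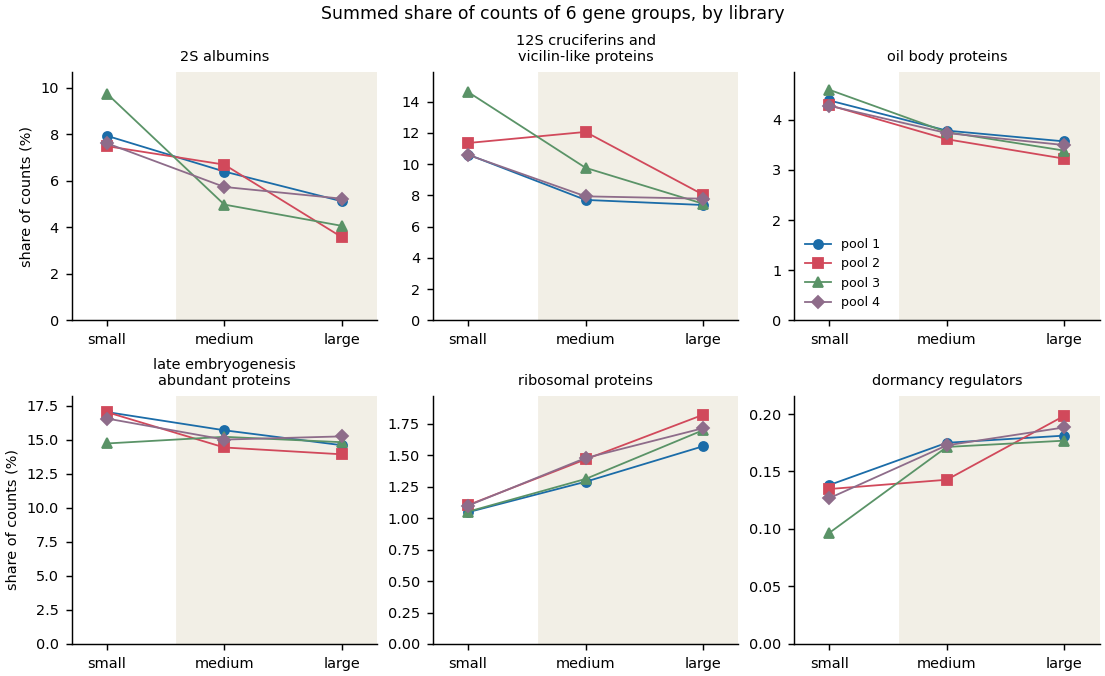
Summed share of the counts on genes (%, axis from 0) taken by 6 gene groups in each dry seed library, with small, medium and large seeds of 1 pool joined by a line and the medium and large libraries on a shaded ground. The shares carry no scaling factors. All medium libraries lay above all large ones for oil body proteins and below them for ribosomal proteins, while late embryogenesis abundant proteins overlapped.

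ATS3 (chr5:2237474-2238720), which encodes embryo-specific protein 3, showed the largest fold of the genes called. It had 58.9, 48.7, 28.6 and 36.3 CPM in M1 to M4 and 18.1, 5.04, 17.73 and 18.7 CPM in L1 to L4. The difference was 1.67 ± 0.28 on the log2 scale, 3.17-fold (95% interval 2.16 to 4.67), at an FDR of 0.00064. The large libraries rested on 12 to 34 reads each. L2 was far below the others, and without it the difference was 1.23 and still called. The related gene AT5G62200 had 77.8, 75.4, 97.6 and 78.2 CPM in medium and 71.3, 63.8, 88.7 and 78 CPM in large libraries, which overlapped, and differed by 0.12 ± 0.15 (-0.17 to 0.42).

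ADC2 (chr4:16560030-16563044), an arginine decarboxylase and the first enzyme of the route to putrescine, was called as well. It had 93.1, 129.6, 96.6 and 68 CPM in medium libraries against 47.5, 42.4, 41.7 and 41.6 CPM in large ones. The large libraries lay within a few CPM of each other, L1 a little above the rest, and all medium libraries were above them (2.27-fold, 1.19 ± 0.19, FDR 0.00041). Of the 10 genes of polyamine metabolism kept it was the only one called (0.146% of all genes). Its paralogue ADC1 had a difference of 0.18 ± 0.22, the spermidine synthases SPDS1, SPDS2 and SPDS3 of -0.07, -0.18 and -0.07, and SAMDC of 0.33 ± 0.13 (FDR 0.61). The median of the list was 0.08, or -0.06 with no scaling factors.

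AT4G37180 (chr4:17504428-17506504), which is annotated as a homeodomain-like superfamily protein, had 30.6, 51.4, 37.5 and 21.4 CPM in medium and 14.7, 15.1, 15.1 and 7.28 CPM in large libraries (1.399 ± 0.26, FDR 0.0037). L4 was low among the large libraries and M2 high among the medium ones, and the call was lost only without M2. LTP2 (chr2:16128176-16129399), a lipid transfer protein of the kind that carries lipids to the surface of the plant, had 214, 311, 200.2 and 225 CPM in medium and 134, 110.4, 139.8 and 173 CPM in large libraries (0.80 ± 0.16, FDR 0.011). It was the only one of 7 listed lipid transfer protein genes that passed the filter on low counts. RAT5 (chr5:22196287-22197492), which encodes a histone H2A, was unlike the others in its level in small seeds. It had 88.4, 96, 108 and 82.9 CPM in medium and 62.3, 65.1, 58.4 and 54.1 CPM in large libraries (0.64 ± 0.14, FDR 0.034), and 85.3, 90.4, 83.8 and 95.6 CPM in small ones. The difference of small from medium seeds was -0.10 ± 0.15 (FDR 0.8). Of 14 genes of histones H2A and H2B it alone was called (0.146% of all genes), and the median of the list was -0.01.

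The remaining 3 genes called encode proteins annotated by family only. AT4G01870, a tolB-like protein, had 23.6, 45.3, 28.6 and 37.3 CPM in medium and 12.5, 15.9, 16.7 and 22.9 CPM in large libraries (1.04 ± 0.22, FDR 0.025). M1 was only just above L4. AT4G36850, a PQ-loop membrane protein, had 121, 199.6, 131 and 104 CPM in medium and 82.6, 89.4, 83.5 and 84.2 CPM in large libraries (0.72 ± 0.15, FDR 0.028). AT1G66760, a transporter of the MATE efflux family, was the least abundant, with 14.1, 35, 17.75 and 10.2 CPM in medium and 9.06, 7.55, 5.74 and 6.24 CPM in large libraries (1.52 ± 0.34, FDR 0.034), from as few as 6 reads in a large library. Without M2 the difference of AT4G36850 was 0.47 and that of AT1G66760 0.97. For these 3, as for CRU3, AT1G03890, LTP2 and RAT5, leaving out 1 library ended the call in at least 4 of the 8 fits.

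**Figure D3:**
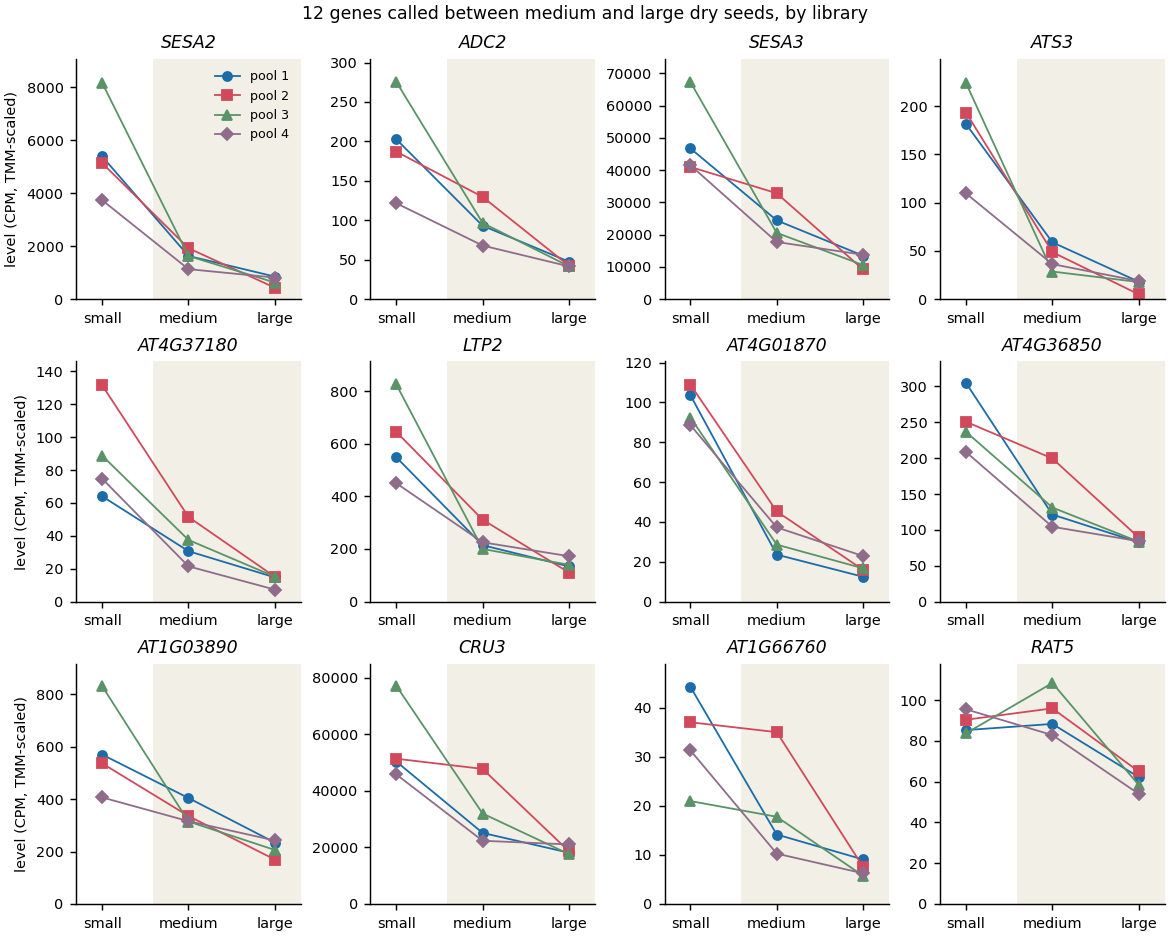
Level in CPM (axis from 0) of the 12 genes called between medium and large dry seeds in each dry seed library, with the small, medium and large seeds of 1 pool joined by a line and the compared libraries on a shaded ground. Medium lies above large in all 4 pools for all 12 genes, and for 11 of them small lies above medium in all 4 pools, RAT5 being the exception. Of all genes kept, 2.02% show the order small over medium over large in all 4 pools. The 12 were selected for medium above large in these same libraries, so that share is no fair baseline for them.

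The 4 pools did not contribute equally. Pool 2 had the largest difference for 11 of the 12 genes called, and the median difference of the 12 was 0.81 in pool 1, 1.53 in pool 2, 0.87 in pool 3 and 0.53 in pool 4 on the log2 scale of each library's CPM. M2 was the highest medium library for 9 of them, against 25.4% of all genes kept, and L2 the lowest large library for 5, against 22.4%. M2 and L2 were the deepest libraries of their sizes. Without M2 the fit called 5 genes and without L2 6, and thinning every library to the counts of the shallowest gave 8. Whether depth or another feature of pool 2 bore on its larger differences was not tested. Medium was higher in all 4 pools for each of the 12, beside 716 of all genes kept (8.7%). The 12 were selected for medium above large in these same libraries, so that share is no fair baseline for them. Large was higher in all 4 pools for 665 genes (8.08%), none of them called.

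With the calls included, 201 genes had medium libraries all above the large ones (2.44%) and 183 the reverse (2.22%), and an unadjusted p under 0.05 was reached by 564 genes (6.85%), 321 higher in medium (3.9%) and 243 in large (2.95%). Of the genes not called that had medium libraries all above the large ones and a mean of at least 10 CPM, the 6 of lowest p were AT1G71695, AT1G14950, MAN1, BGAL3, SESA1 and AT5G05965, of which DESeq2 called AT1G14950 and AT1G71695. AT1G14950, a protein of the Bet v 1 fold, was abundant, with 5064, 5995, 5484 and 4349.6 CPM in medium and 3621, 2879.9, 3884 and 3549.7 CPM in large libraries (0.58 ± 0.14, FDR 0.082). The other family members kept, AT1G14930, AT1G14940, AT1G14960 and AT1G23120, differed by 0.26, 0.49, 0.06 and 0.03. AT1G71695, a peroxidase, had 46, 33.6, 40.4 and 27 CPM in medium and 20.4, 13.4, 22.4 and 21.8 CPM in large libraries (0.94 ± 0.22, FDR 0.067). A pair of cell wall hydrolases stood beside them. MAN1, annotated as a glycosyl hydrolase, differed by 0.81 ± 0.20 (FDR 0.098), and the beta-galactosidase BGAL3 by 0.69 ± 0.18 (FDR 0.1). AT5G05965, a cell wall RBR3-like protein, differed by 0.82 ± 0.21 (FDR 0.11).

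Among genes higher in large seeds, the chloroplast gene ATCG00160 had the lowest p (-1.08 ± 0.25, FDR 0.065), with L1 inside the range of the medium libraries. Of those with at least 10 CPM and libraries that did not overlap, AT1G68240, a basic helix-loop-helix transcription factor, had the lowest. It had 56.6, 59.7, 81.9 and 60.5 CPM in medium and 95.1, 102, 96.5 and 117 CPM in large libraries, without overlap, a difference of -0.67 ± 0.16 (FDR 0.082, and 0.044 with the pool as a block). AT3G60750, a transketolase, an enzyme that moves carbon units between sugars, had 20, 28.1, 29.6 and 21.4 CPM in medium and 41.9, 45.3, 42.8 and 42.6 CPM in large libraries (-0.79 ± 0.20, FDR 0.096). HA2, a proton pump of the plasma membrane, had 14.1, 15.8, 18.7 and 14.9 CPM in medium and 24.9, 32.7, 30.3 and 29.1 CPM in large libraries (-0.90 ± 0.24, FDR 0.12). The large libraries of AT3G60750 were close together, with an SD of 1.5 CPM against 4.76 CPM in medium. The SDs in large and medium libraries were 10.2 and 11.6 CPM for AT1G68240, and 3.27 and 2.01 CPM for HA2. For all 3 genes the 4 medium libraries lay below the large ones. The ribosomal protein genes AT1G33120 (-0.69 ± 0.17) and AT2G37600 (-1.17 ± 0.30), the jacalin lectin gene AT1G33790 (-0.57 ± 0.14), AT2G47710 (-0.82 ± 0.23) and AT2G47780 (-0.55 ± 0.16), annotated with the rubber elongation factor family, made up the rest of the 8 of lowest p under these limits, with FDRs from 0.096 to 0.21. In the fit of the 8 libraries alone, AT1G68240, AT3G60750, AT1G33120, AT1G33790, AT2G37600 and HA2 were 6 of the 9 genes called higher in large seeds.

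With the seed pool as a block, 12 genes were added to the calls. Besides AT1G71695, AT1G14950, BGAL3, SESA1, AT5G05965 and AT1G68240, they were AT1G47540, a knottin of the scorpion toxin type (659, 759, 699 and 553 CPM in medium and 499, 367, 450.1 and 319 CPM in large libraries), AT5G65660, AT1G17830, SBP2 and the chloroplast genes ATCG00160 and ATCG00340. The last 5 overlapped between the sizes in CPM, SBP2 and AT1G17830 at levels of 2.1 to 26.6 CPM. ATCG00340 had 846, 321, 455 and 192 CPM in medium and 308, 168, 293 and 199.6 CPM in large libraries, high in pool 1, and ATCG00160 had 35.4, 11.7, 27.6 and 32.6 CPM in medium and 27.2, 63.4, 55.3 and 66.5 CPM in large libraries, the reverse direction. The summed share of the chloroplast genes was 0.162 to 0.337% in medium and 0.211 to 0.333% in large libraries.

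Ribosomal protein genes lay mostly on the side of the large seeds. The list was made from product names that mention a ribosomal protein, cytosolic and organellar, and so also holds some translation elongation factors. Of the 254 kept, none passed the test with edgeR or DESeq2, though DESeq2 gave AT2G37600 no FDR and could not call it. Of these genes 199 had a value below 0. A value above 0 was found for 21.7% of them, against 51.1% of all genes. The median was -0.18, beside 0.01 over all genes, and -0.32 beside -0.14 with no scaling factors. Large libraries were all above medium ones for 24 of them (9.45%, against 2.22% of all genes) and all below for 2. An unadjusted p under 0.05 was reached by 40 in this direction and by 2 in the other, beside 2.95% and 3.9% of all genes. Their summed share, which carries no scaling factors, was 1.29, 1.47, 1.31 and 1.48% in M1 to M4 and 1.57, 1.82, 1.7 and 1.72% in L1 to L4, with no overlap, and 1.05, 1.1, 1.05 and 1.1% in S1 to S4. Without the 13 kept members whose product names an elongation factor or the S5 domain 2-like fold, a choice made after seeing the data, 190 of 241 were below 0, the median was -0.18, and the summed share was 1.17 to 1.35% in medium and 1.43 to 1.67% in large libraries. The set of co-expressed genes that the study formed on single seeds as cluster 1, 351 of them kept, includes 131 of these genes and had a median of -0.17. Cluster 2 of that set, 133 genes kept with 2 of the albumin genes among them, had a median of 0.07, or -0.07 with no scaling factors. It held 2 calls (0.146% of all genes), SESA2 among them.

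The late embryogenesis abundant (LEA) proteins, which protect cells as they dry, took the largest share of the transcripts of these lists. The 31 genes kept had no call. Their median was 0.11, turning to -0.03 with no scaling factors, and their summed share was 15.7, 14.4, 15.2 and 15% in M1 to M4 and 14.6, 13.9, 14.8 and 15.3% in L1 to L4. Unadjusted p-values under 0.05 came from 6 of them, all higher in medium, a direction in which 3.9% of all genes had such a p. Oil breakdown genes (15 kept, median 0.06, or -0.08 with no scaling factors), heat shock proteins and factors (10 kept, median -0.00446, or -0.14 with no scaling factors) and the proteins that sort and process storage proteins (4 kept, median 0.14, or -0.00197 with no scaling factors) had no call either, and no member of these 3 lists had an unadjusted p under 0.05.

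**Figure D4:**
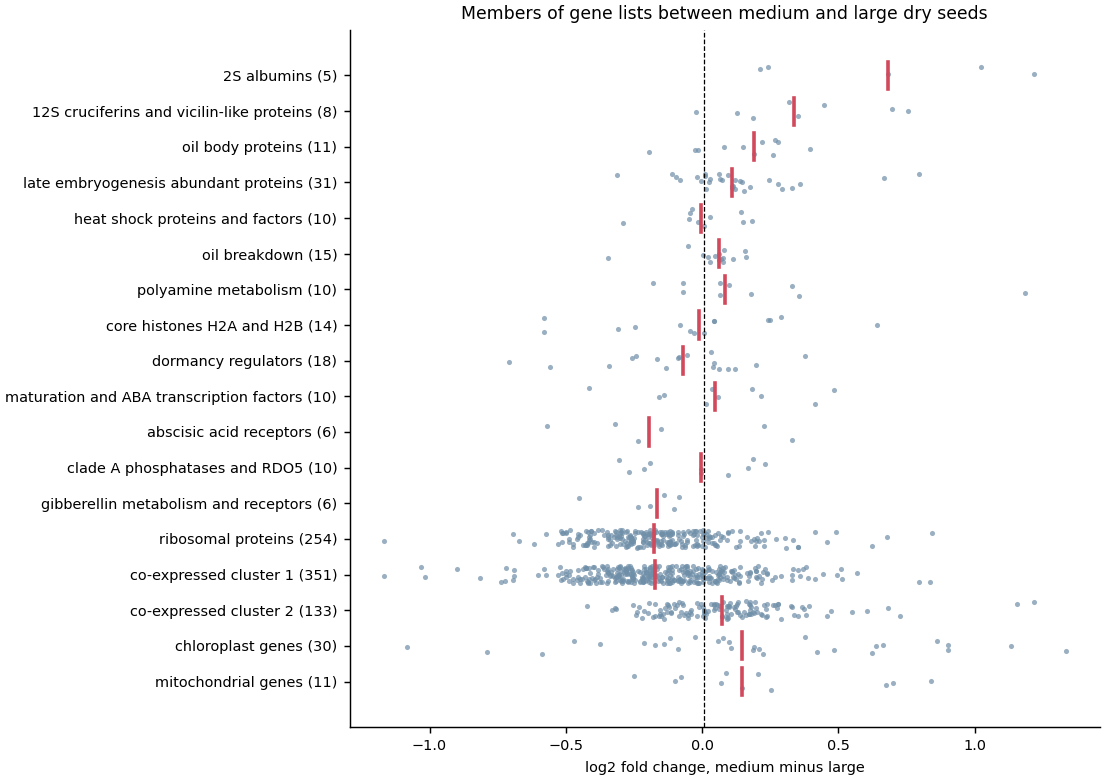
Log2 fold change of medium minus large dry seeds for the kept members of 18 gene lists (number in brackets), 1 point per gene, with the list's median as a red bar and the median of all genes as a dashed line. The medians of albumins and cruciferins lie to the right of the dashed line and that of ribosomal proteins to its left.

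None of the listed genes of dormancy or abscisic acid signalling passed edgeR's test between medium and large seeds, nor DESeq2's. DESeq2 gave some genes no FDR, PYL12 among them, and could not call these. Of the 18 dormancy regulators, 1 higher in medium and 2 higher in large had an unadjusted p under 0.05, beside 3.9% and 2.95% of all genes. DOG1 (chr5:18589418-18591506) had 95.5, 55.6, 54.2 and 55 CPM in medium and 50.9, 47, 52.7 and 45.7 CPM in large libraries. The groups did not overlap, but M1 stood far above the other medium libraries, and the difference was 0.38 ± 0.17 (0.03 to 0.73, FDR 0.69), or 0.15 with M1 left out. Between small and medium seeds the difference of DOG1 was 0.89 ± 0.17 (FDR 0.00075).

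None of the listed genes that act in the breakdown or signalling of abscisic acid passed the test, and their values lay on both sides of 0. CYP707A2, which breaks abscisic acid down, had 37.7, 30.9, 39.4 and 57.7 CPM in medium and 52.1, 54.1, 37.6 and 54.1 CPM in large libraries, which overlapped (-0.25 ± 0.20, -0.65 to 0.15). The phosphatases AHG3 (PP2CA in the annotation) and HAI2, which hold the pathway off in the absence of the hormone, differed by -0.01 ± 0.16 and -0.19 ± 0.16. RDO5 (AT4G11040), a phosphatase-like protein needed for full dormancy, had 131, 91.9, 138 and 133 CPM in medium and 156, 142, 134 and 179 CPM in large libraries (-0.30 ± 0.15, -0.61 to 0.01). The receptors PYL12 and PYL5 differed by -0.24 ± 0.23 and 0.33 ± 0.18, and the kinases SNRK2.2 and SNRK2.10 by 0.27 ± 0.16 and 0.25 ± 0.13. The bounds of the 95% intervals of the genes in this paragraph ran from -0.71 to 0.69 on the log2 scale. Over the 18 dormancy regulators kept, the median was -0.07, or -0.21 with no scaling factors, beside -0.14 for all genes without factors. Their summed share, which carries no scaling factors and so includes that shift of all genes, was 0.175, 0.143, 0.171 and 0.173% in M1 to M4 and 0.181, 0.198, 0.177 and 0.188% in L1 to L4. The list of clade A phosphatases and RDO5, 10 genes of which 4 were above 0 and 6 below, had a median of -0.01, the 6 receptors of -0.19, the 10 maturation and abscisic acid transcription factors of 0.05 and the 6 gibberellin genes of -0.17, beside -0.14, -0.33, -0.09 and -0.31 with no scaling factors, under which all genes had a median of -0.14. The sign of the transcription factors' median thus turned with the scaling.

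With the small seeds of the same pools, the step from small to medium can be set beside that from medium to large. For SESA2 the difference of small from medium was 1.83 ± 0.18 and that of medium from large 1.22 ± 0.18. The 2 values were 1.04 ± 0.16 and 1.02 ± 0.16 for SESA3, 2.07 ± 0.21 and 1.67 ± 0.28 for ATS3, 1.05 ± 0.17 and 1.19 ± 0.19 for ADC2, and 0.82 ± 0.17 and 0.75 ± 0.17 for CRU3. Of the 12 genes called, 10 were also called between small and medium seeds, which share the medium libraries, the exceptions being AT1G66760 (0.62 ± 0.29) and RAT5. The difference of the steps was tested directly, as small minus medium less medium minus large. No gene passed with edgeR (lowest FDR 0.816) or with DESeq2 (0 genes), and 358 had an unadjusted p under 0.05 with edgeR (4.35%). The difference of the steps was 1.24 for SESA1 (0.62 to 1.86) and -1.31 for PYL12 (-2.28 to -0.35), both short of the FDR threshold. For SESA3 the 95% interval of the difference of the steps was -0.55 to 0.58. A missing call therefore does not show that the steps were equal.

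**Figure D5:**
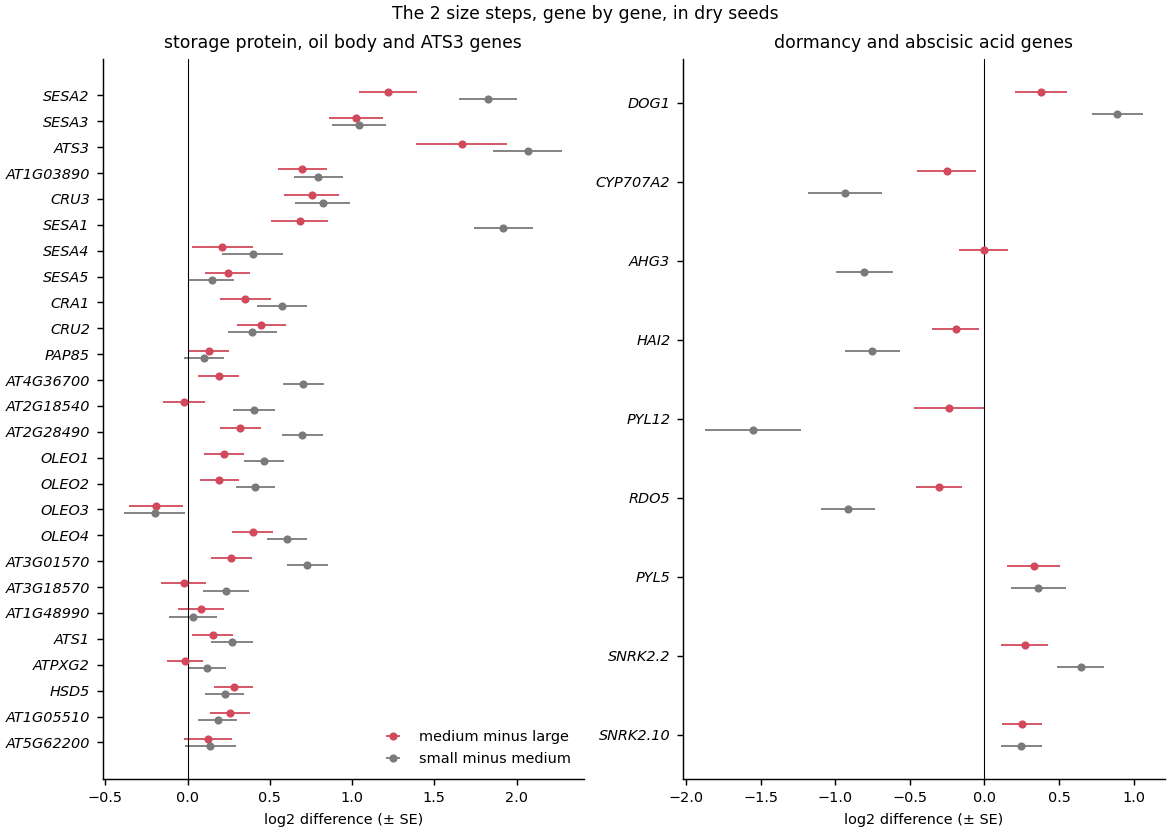
Log2 difference (± SE) of medium minus large and of small minus medium dry seeds for the 26 storage protein, oil body and ATS3 genes kept and for 9 dormancy and abscisic acid genes. The estimates for SESA1, DOG1, PYL12 and RDO5 are further from 0 for the step from small to medium, and those for SESA3 and CRU3 nearly equal, while no gene passed the test of the difference of the steps.

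The precision of the comparison limits what could be called. The median SE of a gene's log2 fold change was 0.22 over all genes, 0.13 for the 983 genes at 100 CPM or more and 0.37 for the 485 genes under 10 CPM. The 95% interval lay within ±1 on the log2 scale for 7405 genes (89.9%), so for these a fold of more than 2 between the sizes was outside the interval. Changes of more than 1 on this scale were seen in 24 genes, 17 higher in medium and 7 in large, 10 of them under 10 CPM. The median absolute log2 fold change was 0.16, beside 0.23 between small and medium seeds.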

How the data were processed

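The authors deposited whole-number counts by gene, not normalized, for 12 dry seed libraries, of which 8 were compared here. The authors made 3′ RNA-seq libraries with barcoded oligo(dT) primers that carry molecular identifiers. Their processing notes name STAR 2.7.8a and TAIR10, and the sources used here do not state the annotation, strand or multi-mapping rules, or whether identical molecules were collapsed. Names and coordinates are from TAIR10.1, which matched 36899 of 37184 genes. The counts of the single seeds (12 files) were not used.

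The filter filterByExpr, grouped by size, left 8234 genes, which were tested in one fit of the 12 libraries (edgeR 4.0.16, R 4.3.3) with TMM factors, glmQLFit and glmQLFTest, two-sided, with the Benjamini-Hochberg FDR under 0.05 as the threshold. This fit departs from the authors' use of DESeq2, which was an alternative (1.42.0). The SE is the log2 fold change divided by the square root of F, and within-pool differences used log2 CPM with a prior count of 2. The script was tested on simulated data. Tables were made with Python 3.11.15, pandas 2.3.3 and numpy 2.4.6. No pair of libraries was near sampling noise (lowest chi-square per degree of freedom 1.61). The lowest pair was L1 and M4, of different size and pool. M4 had 1.61, 3.41, 2.77 and 1.89 with L1 to L4, and 2.47, 5.80 and 3.36 with M1 to M3. It was thus nearer to L1 and L4 than to any other medium library. The depth of the libraries, which differed, was not accounted for in these values.

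Libraries of 1 number come from the same seed pool and are paired by the sorting. Their residuals correlated at 0.02, 0.10, 0.03 and 0.02 in pools 1 to 4 (mean 0.04). The mean between pools, -0.01, is no separate baseline, because residuals sum to 0 within a size, which nearly fixes it. The main fit has no pool term, as the study's methods state none. Windows for promoters were 250 bases before the annotated start, searched for CATGCA and ACGTG on both strands.

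Genes named were all those called, the 6 (medium) and 8 (large) uncalled genes of lowest p with at least 10 CPM and libraries apart, those called only with the pool block, the storage protein, oil body and ATS3 genes kept, and 9 dormancy and abscisic acid genes. List members named beside these were chosen after their values were seen. The members and lists were chosen with earlier results of these data known. Alternatives numbered 49 planned and 14 added.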

Additional observations from a re-analysis of the deposited data

Results flagged for a closer look

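Among the 122 groups of 4 medium or 4 large libraries looked at, 1 for each size of each gene named, 10 held a library that stood apart from the other 3 by more than Dixon's critical gap, which chance passes in about 5% of groups.

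Among the genes called, ADC2 was 47.5 CPM in L1 against 41.6 to 42.4 CPM in the other large libraries, a library nearer to the medium ones. ATS3 was 5.04 CPM in L2 against 17.73 to 18.7 CPM, and AT4G37180 was 7.28 CPM in L4 against 14.7 to 15.1 CPM, both farther from the medium libraries. Of the genes not called, AT1G68240 was 81.9 CPM in M3 against 56.6 to 60.5 CPM, and AT5G62200, the relative of ATS3, was 97.6 CPM in M3 against 75.4 to 78.2 CPM.

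The other 5 were dormancy and abscisic acid genes. DOG1 was 95.5 CPM in M1 against 54.2 to 55.6 CPM in the other medium libraries. CYP707A2 was 37.6 CPM in L3 against 52.1 to 54.1 CPM. RDO5 (AT4G11040) was 91.9 CPM in M2 against 131 to 138 CPM, PYL5 was 55 CPM in L2 against 38.5 to 39.6 CPM, and SNRK2.10 was 232 CPM in M4 against 314 to 330.0 CPM. The 10 values were spread over all 8 libraries, with no more than 2 in any 1 of them.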

How the results depend on the processing

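DESeq2's Wald test called 13 genes and shared 10 of the 12. CRU3 did not pass it, and AT1G66760 was given no FDR and so could not be called. Upper-quartile factors gave 11, a mean of at least 10 counts 12, leaving out organelle genes 12, and thinning to the shallowest library 8. Every gene with a count, unfiltered, gave 31. The seed pool as a replicate block gave 24, the 8 libraries alone 35, and these with the block 42. Without 1 medium or large library the count was 5 to 26, and without 1 small library, a choice made after seeing the data, 10 to 33. Fits with library totals and no scaling factors, also chosen after seeing the data, gave 10, and turned the medians of several lists to the other side of 0, those of LEA proteins, oil breakdown, polyamine metabolism and cluster 2 among them.

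For the difference of the size steps the count was 0 throughout, save 3 without the filter on low counts. Of 264 values of the 12 genes under alternatives 207 were still called, 57 kept the direction without passing, and 0 reversed. Of 1076 values of the other genes named, 103 were called under some alternative. Of 466 medians of lists, 441 moved by less than the spread between pools. Genes under 10 CPM, at a median SE of 0.37, are those for which depth limits the comparison most.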

Other observations

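Of the 12 genes called, 7 lie on chromosome 4 (58.3%), which carries 15.1% of the genes kept. They are SESA2, SESA3, CRU3, ADC2, AT4G37180, AT4G01870 and AT4G36850, of which SESA2 and SESA3 are neighbours. The share was 41.7% of the 24 genes called with the pool as a block, 17.1% of the 321 genes higher in medium at an unadjusted p under 0.05, and 18.3% of the 1209 genes called between small and large seeds. This was seen after the calls were made and was not tested.

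The 3 kept members of Bet v 1 and latex-like proteins that had an unadjusted p under 0.05, AT1G14930, AT1G14940 and AT1G14950, stand side by side on chromosome 1. In this direction 3.9% of all genes had such a p. The other members kept were AT1G14960, the next of the run by locus number, and AT1G23120. They differed by 0.06 ± 0.22 and 0.03 ± 0.32. The summed share of that list was 0.639 to 0.768% in medium and 0.476 to 0.590% in large libraries, without overlap. STS, an enzyme of the raffinose family route, had 14.7 CPM in medium and 25.2 CPM in large libraries on average, a log2 difference of -0.78 that did not pass the test (chosen for naming after its value was seen).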
